A study of Mus musculus with 4 samples.

Results

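The tumor suppressor p53 (gene Trp53), 6 of its target genes (Cdkn1a, Mdm2, Ccng1, Phlda3, Zmat3 and Trp53inp1) and the Gadd45 family (Gadd45a, Gadd45b and Gadd45g) were followed in the RNA of sorted mouse hematopoietic stem cells (HSCs) with and without Gfi1b. These 10 genes were chosen by name from the 37140 genes that are listed in all 4 count tables. The cells came from C57Bl6 bone marrow of tibiae, femora and humeri and were sorted either as HSCs (Lin- cKit+ Sca1+ CD48- CD150+) or as CD41low/CD9low HSCs, each from Gfi1b WT and Gfi1b KO mice. Gfi1b is a transcriptional repressor, and its floxed alleles were deleted with tamoxifen through a Cre recombinase that is expressed from the Rosa locus in all tissues and is not restricted to blood cells. By the study's methods the WT mice carried Rosa-Cre with a single floxed allele and received tamoxifen as well, whereas the design text deposited with the data speaks of floxed mice with or without Cre. Marrow was pooled over several mice before sorting, from more WT than KO mice, and there was 1 library for each genotype and population. The sample titles say Gfi1 where the genotype labels say Gfi1b, and the genotype labels were followed. No difference within a population therefore has a replicate check, and the libraries of a genotype may share their mice. In bulk RNA, fewer cells that express a gene and less of its RNA per cell cannot be told apart.

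p53 is a transcription factor that cells hold at a low level through Mdm2, a ubiquitin ligase that marks p53 for degradation and is itself a p53 target. Upon DNA damage or other stress p53 accumulates and induces genes that stop the cell cycle, repair DNA or start apoptosis, and in HSCs it is known to favor quiescence. The Gadd45 genes encode small stress sensors that bind Cdk1, PCNA and the kinase Map3k4. Gadd45a is a classical p53 target, whereas Gadd45b and Gadd45g are also induced by cytokines and other signals without p53.

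Promoter sequences are shown because p53 acts through a DNA element made of adjacent copies of a 10-letter motif, the p53 decamer. RefSeq promoter windows of the GRCm38.p6 build, which reach from 250 bases before to 50 bases after a gene's start, were found for 8 of the 10 genes and gave 9 windows. Zmat3 and Trp53inp1 had no entry. A perfect match to the decamer, which reads the same on both strands, was present in 5 of the 9 windows and in 8.36% of all 32851 windows. An element of 20 letters with at most 1 mismatch was present in the upstream window of Cdkn1a, and in 0.0548% (18) of all windows. This is the sequence of chr17:29090729-29090978 on the forward strand, the 250 bases before the upstream start of Cdkn1a, with the 20-letter element in capitals.
Cdkn1a upstream: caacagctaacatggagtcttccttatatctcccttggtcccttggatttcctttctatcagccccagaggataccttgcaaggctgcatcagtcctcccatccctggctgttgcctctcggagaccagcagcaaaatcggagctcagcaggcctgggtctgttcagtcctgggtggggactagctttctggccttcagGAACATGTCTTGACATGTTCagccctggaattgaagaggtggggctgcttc
The element begins 51 bases before that start. A further decamer lies upstream of it in the same window, and the downstream start of Cdkn1a (window chr17:29093519-29093818) had no match. The other genes with a decamer match are shown for comparison, with the decamer in capitals and the gene's own strand written 5′ to 3′.
Trp53, chr11:69580269-69580308, forward strand: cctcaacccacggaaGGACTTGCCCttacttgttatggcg
Mdm2, chr10:117710920-117710959, reverse strand: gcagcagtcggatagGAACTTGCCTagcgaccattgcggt
Ccng1, chr11:40755447-40755486, reverse strand: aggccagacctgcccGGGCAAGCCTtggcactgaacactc
Gadd45a, chr6:67037423-67037462, reverse strand: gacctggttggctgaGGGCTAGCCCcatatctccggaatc
These windows held a single decamer each. The windows of Phlda3, Gadd45b and Gadd45g held none. The letters TATAAA, searched on both strands, were present in 13.6% of all windows. Gadd45b and Gadd45g carried them on the gene's strand shortly before the start (capitals), and Trp53 carried them on the opposite strand.
Gadd45b, chr10:80930030-80930065, forward strand: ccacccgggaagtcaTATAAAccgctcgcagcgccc
Gadd45g, chr13:51846633-51846668, forward strand: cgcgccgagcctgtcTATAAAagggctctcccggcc
A match of letters is a description of the window and does not show that a factor is bound there. Sequence outside these windows was not searched, so a window without a match does not show that the gene lacks a p53 element.

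The total count on genes was between 12732079 and 50781007 per library, with the lower totals in CD41low/CD9low HSCs, so that 3 counts correspond to between 0.059 and 0.236 counts per 1000000 counts (CPM). Whole-gene counts of Gfi1b (ENSMUSG00000026815) rose with the KO label, from 9256 to 49910 in HSCs and from 611 to 9741 in CD41low/CD9low HSCs. Its log2 KO/WT over both populations reached 3.06 (adjusted p = 5.52e-08, edgeR's quasi-likelihood test), and these counts per gene do not separate the deleted exons from the rest. All 10 markers of HSCs were detected in each library, with a summed level of 2050 to 2660 CPM. The summed level of 10 megakaryocyte and platelet markers was 1580 CPM in WT and 1840 CPM in KO HSCs, against 504 and 538 CPM in the CD41low/CD9low libraries. For 10 granulocyte and monocyte markers the sums were 680 and 725 CPM in the HSC pair and 1430 and 546 CPM in the CD41low/CD9low pair, WT first. For 10 erythroid markers they were 63.7 and 57.2 CPM in HSCs and 156 and 19.2 CPM in CD41low/CD9low HSCs, again WT first. The near-equal sums in HSCs hold opposite differences, with 5 erythroid markers above a KO/WT ratio of 1.5 and 2 below 0.6. These cutoffs were passed by 14.1% and 10.3% of all genes in HSCs. Named after their values were seen, the globin gene Hbb-bs had 106 counts in WT and 660 in KO HSCs, whereas Car1, an erythroid carbonic anhydrase, had 1005 and 347. No granulocyte or monocyte marker was at 0 in any library, and 2 erythroid markers were at 0 in the KO CD41low/CD9low library. Of 10 lymphoid markers, 5 were at 0 in the WT and 6 in the KO CD41low/CD9low library, with sums of 206 and 218 CPM in HSCs and 46.9 and 61.0 CPM in CD41low/CD9low HSCs. Of the 10 megakaryocyte and platelet markers, 5 were above 1.5 and 0 below 0.6 in the CD41low/CD9low pair, beside 13.5% and 12.0% of all genes. Their ratios there were above 1 for 7 and below 1 for 3. The KO/WT differences within CD41low/CD9low HSCs described below therefore go together with fewer counts on granulocyte, monocyte and erythroid markers in the KO library. They also go together with higher ratios of several megakaryocyte and platelet markers. The differences in HSCs go together with more counts on some erythroid markers and fewer on others. The part of these cells in the results was not tested.

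To see how much RNA each gene contributes, counts were scaled to CPM and then divided by the length of the gene's annotated exons in kilobases. Ccng1, which encodes cyclin G1, was the highest of the 10 genes on this scale in every library, with 37.5 CPM per kb in WT HSCs, 43.7 in KO HSCs, 27.1 in WT CD41low/CD9low HSCs and 27.8 in KO CD41low/CD9low HSCs. Trp53, Mdm2 and Trp53inp1, which encodes a cofactor of p53 in stress and autophagy, followed in this order in every library, between 24.3 and 13.2 CPM per kb. The intervals for counting error of Trp53 and Mdm2 overlapped in WT HSCs, with 22.4 (95% Poisson interval 21.8 to 23.1) and 21.3 (20.7 to 21.9) CPM per kb. The Gadd45 genes lay in the middle, between 2.46 and 11.4 CPM per kb, and their order differed between libraries. Gadd45a led them in WT HSCs and in KO CD41low/CD9low HSCs, Gadd45g led them in KO HSCs, and in WT CD41low/CD9low HSCs the interval of Gadd45b overlapped that of Gadd45a. Phlda3, an inhibitor of the kinase Akt, Zmat3, an RNA-binding zinc finger protein, and Cdkn1a, the cell-cycle inhibitor p21, were the lowest 3 genes in each library, at 1.78 CPM per kb or less. Cdkn1a RNA thus lay far below the RNA of Trp53 itself, at 1.11 against 22.4 CPM per kb in WT HSCs.

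**Figure D1:**
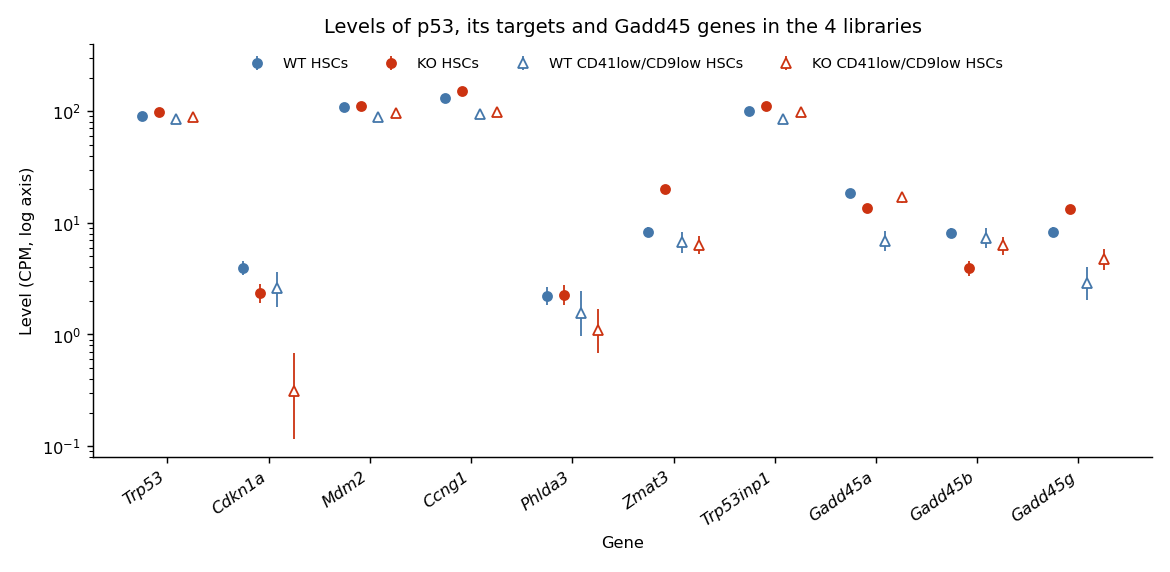
Level of each gene (CPM, log axis, not divided by length) in the 4 libraries, with bars for the 95% Poisson interval of the count. Trp53, Mdm2, Ccng1 and Trp53inp1 sit between 85.4 and 153 CPM in every library, and Cdkn1a in KO CD41low/CD9low HSCs is the lowest point at 0.314 CPM.

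For the KO/WT comparison, counts of each pair were scaled with size factors from the median of ratios, and ratios above 1.5 or below 0.6, the study's own cutoffs, were counted as up or down. In HSCs, 2 of the 10 genes were up (Zmat3 and Gadd45g) and 1 was down (Gadd45b), beside shares of 14.1% up and 10.3% down over 15910 genes. In CD41low/CD9low HSCs, 2 of the 10 were up (Gadd45a and Gadd45g) and 1 was down (Cdkn1a), beside shares of 13.5% up and 12.0% down over 14844 genes. These shares among so few genes are close to those of all genes. All 10 genes had at least 10 counts in a library of each pair, so none was lost to the filter on low counts. Their median log2 ratio came to 0.095 in HSCs against 0.038 in CD41low/CD9low HSCs, beside -0.001 and 0.002 for all genes tested.

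p53 and its feedback partner differed little between genotypes. Trp53 (ENSMUSG00000059552, chromosome 11, 69580359 to 69591873, GRCm38) had 4147 normalised counts in WT and 4556 in KO HSCs, against 1341 and 1378 in the CD41low/CD9low pair. Its KO/WT ratio was 1.10 (95% interval for counting error 1.05 to 1.15) in the HSC pair and 1.03 (0.952 to 1.11) in the CD41low/CD9low pair. Mdm2 (ENSMUSG00000020184, chromosome 10, 117688875 to 117710758) had 4944 and 5122 normalised counts in HSCs and 1397 and 1490 in CD41low/CD9low HSCs, WT first. Its ratios were 1.04 (0.996 to 1.08) and 1.07 (0.990 to 1.15), so that both intervals include 1. Over both populations the log2 KO/WT was 0.09 ± 0.15 (SE) for Trp53 and 0.07 ± 0.15 for Mdm2, with adjusted p-values of 0.953 and 0.968 (edgeR's quasi-likelihood test). The shift of either gene was thus smaller than its standard error.

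Cdkn1a was lower in the KO library of both populations, and the difference in ratio was wider in CD41low/CD9low HSCs. Cdkn1a (ENSMUSG00000023067, chromosome 17, 29090976 to 29100727) had its reads counted 201 times in WT against 98 times in KO HSCs, and 33 against 6 times in the CD41low/CD9low libraries. Scaled to depth this is 3.96 CPM in WT and 2.35 CPM in KO HSCs, and 2.59 and 0.314 CPM in the CD41low/CD9low libraries. The KO/WT ratio was 0.602 (95% interval 0.468 to 0.770) in HSCs, just outside the cutoff, and 0.121 (0.0415 to 0.293) in CD41low/CD9low HSCs. Under TMM, total-count and 4-library scaling the HSC ratio was 0.599, 0.594 and 0.597, which falls below 0.6. The log2 KO/WT over both populations was -1.75 ± 0.91 (SE), with an unadjusted p of 0.0731 and an adjusted p of 0.569 across all genes (edgeR's quasi-likelihood test). Cdkn1a thus had the lowest ratio of the 10 genes in CD41low/CD9low HSCs.

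Ccng1, Trp53inp1 and Phlda3 had ratios between 0.6 and 1.5 in both populations. Ccng1 (ENSMUSG00000020326, chromosome 11, 40748552 to 40755311) had 6023 and 7104 normalised counts in the HSC pair, WT first, against 1487 and 1525 in the CD41low/CD9low pair. Its ratios were 1.18 (1.14 to 1.22) and 1.03 (0.954 to 1.10). Trp53inp1 (ENSMUSG00000028211, chromosome 4, 11156431 to 11174379) had 4543 and 5169 normalised counts in HSCs and 1331 and 1546 in CD41low/CD9low HSCs, WT first, with ratios of 1.14 (1.09 to 1.18) and 1.16 (1.08 to 1.25). Both of its ratios lie above 1 by more than counting error, and neither reaches 1.5. Phlda3 (ENSMUSG00000041801, chromosome 1, 135766119 to 135769136), counted 113 and 95 times in HSCs and 20 and 21 times in CD41low/CD9low HSCs, had ratios of 1.04 (0.781 to 1.38) and 0.700 (0.361 to 1.36). Both intervals include 1, so that at this depth neither ratio could be told from 1.

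Zmat3 stood out among the targets in HSCs. Zmat3 (ENSMUSG00000027663, chromosome 3, 32334792 to 32366014), with 421 counts in WT against 847 in KO HSCs, had 379 and 941 normalised counts and a ratio of 2.48 (2.21 to 2.80). In CD41low/CD9low HSCs it was counted 86 and 122 times, which gives 105.3 and 99.6 normalised counts and a ratio of 0.946 (0.712 to 1.26). The KO HSC library was thus the single library in which Zmat3 was high, at 20.3 CPM against 6.38 to 8.29 CPM in the others. With 11435 exon bases Zmat3 is the longest of the 10 genes, and in HSCs genes of similar exon length had a running median ratio of 1.15. Divided by this, its HSC ratio was 2.16 and stayed above 1.5. The KO HSC library also held the most reads outside annotated features, 105.3 per 100 counts on genes against 60.1 to 80.0 in the others, and their part in this result was not tested. Its log2 KO/WT over both populations was 0.65 ± 0.37 (SE, adjusted p = 0.632, edgeR's quasi-likelihood test).

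**Figure D2:**
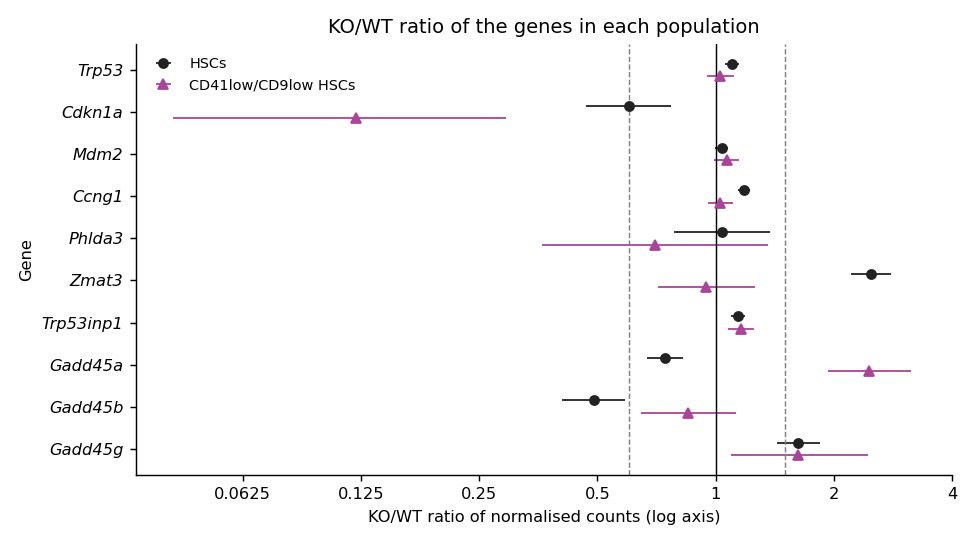
KO/WT ratio of normalised counts (log axis) of each gene in HSCs (circles) and CD41low/CD9low HSCs (triangles), from 1 library per genotype, with bars for the 95% interval of counting error and dashed lines at 0.6 and 1.5. Gadd45g lies at 1.62 in both populations, Gadd45a lies on opposite sides of 1, and Cdkn1a lies below 1 in both.

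Each of the 3 Gadd45 genes had a different pattern over the 4 libraries. Gadd45g (ENSMUSG00000021453, chromosome 13, 51846678 to 51848468), with 424 counts in WT and 558 in KO HSCs, against 37 and 90 in the CD41low/CD9low pair, was up in both. The ratios were 1.62 (1.43 to 1.85) and 1.62 (1.09 to 2.45), and their quotient was 0.998 (95% interval for counting error 0.667 to 1.49). The log2 KO/WT over both populations was 0.70 ± 0.38 (SE), with an unadjusted p of 0.0887 and an adjusted p of 0.614 (edgeR's quasi-likelihood test). Gadd45g was thus higher in KO in both pairs and did not pass the test across 14940 genes.

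Gadd45a was lower in the KO library in HSCs and higher in CD41low/CD9low HSCs. Gadd45a (ENSMUSG00000036390, chromosome 6, 67035096 to 67037457), with 940 counts in WT and 566 in KO HSCs, against 88 and 324 in the CD41low/CD9low pair, had ratios of 0.743 (0.668 to 0.826) and 2.46 (1.93 to 3.14). In CPM the WT CD41low/CD9low library stood apart at 6.91, against 18.5 in WT HSCs, 13.6 in KO HSCs and 16.9 in KO CD41low/CD9low HSCs. A noncoding gene on the opposite strand, E230016M11Rik, shares 337 exon bases with Gadd45a and was counted 166, 175, 72 and 58 times in the same libraries (WT HSCs, KO HSCs, WT and KO CD41low/CD9low HSCs). The strand setting of the counting is not given in the sources used here, so reads of this pair may not be separated.

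Gadd45b was down in KO HSCs. Gadd45b (ENSMUSG00000015312, chromosome 10, 80930073 to 80932204), with 411 counts in WT and 163 in KO HSCs, against 94 and 120 in the CD41low/CD9low pair, had ratios of 0.490 (0.406 to 0.588) and 0.851 (0.644 to 1.13). KO HSCs were the lowest library at 3.91 CPM, and the other libraries lay between 6.28 and 8.09 CPM. Gadd45b is known to respond to many of the signals that induce immediate-early genes such as Fos and Egr1, so these were set beside it. The list of immediate-early genes, like the others, was chosen with earlier results of these data known. Of its 20 genes, 17 were down and 0 were up in HSCs, beside 10.3% down and 14.1% up over all genes. Their median log2 ratio there came to -1.72. Of the 17 tested in the CD41low/CD9low pair, 3 were down and 2 were up, beside 12.0% and 13.5%, with a median of -0.27. Their summed level was 5820 CPM in WT and 2150 CPM in KO HSCs, against 905 and 892 CPM in the CD41low/CD9low pair. In the fit over both populations 5 of the 20 passed as lower in KO by edgeR's quasi-likelihood test and 3 by DESeq2, beside 46 and 31 of all 14940 genes. Within the HSC pair, Gadd45b and most of these genes were lower in KO. Their levels did not run together over all 4 libraries. In the CD41low/CD9low libraries the sum of these genes was lowest, whereas Gadd45b was at 7.38 CPM in WT and 6.28 CPM in KO. The ratio of Cdkn1a, in turn, was lower in the CD41low/CD9low pair than in the HSC pair. Any part of the immediate-early response in either result was not tested.

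In the fit over all 4 libraries with population as covariate, 0 of the 10 genes passed an adjusted p of 0.05 for genotype, beside shares of 0.535% higher and 0.308% lower in KO over 14940 genes (edgeR's quasi-likelihood test). None of the 10 had an unadjusted p under 0.05, and DESeq2 called 0 as well. Over all genes 1501 of 14940 had an unadjusted p under 0.05 in edgeR and 974 in DESeq2, and the counts given below for lists are to be read beside these. This fit takes the populations as the only repeat of the genotype contrast and has 1 residual degree of freedom, and a difference between the ratios of the populations, as in Zmat3 and Gadd45a, enters its residual spread. The median log2 effect of the 10 genes was 0.11, beside 0.01 for all genes.

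Between the populations, 2 of the 10 genes were lower in CD41low/CD9low HSCs than in HSCs, where 12.6% of all genes were lower and 8.24% higher in the same test. Gadd45g fell by 1.57 ± 0.39 (SE) on the log2 scale (adjusted p = 0.00843, edgeR's quasi-likelihood test), from 8.35 and 13.4 CPM in WT and KO HSCs to 2.91 and 4.71 CPM. Ccng1 fell by 0.62 ± 0.15 (adjusted p = 0.00755, edgeR's quasi-likelihood test), from 132 and 153 CPM to 95.3 and 97.7 CPM. For both genes the HSC libraries lay above the CD41low/CD9low libraries without overlap. Zmat3 had a log2 difference of -1.05 ± 0.37 and just missed the threshold (adjusted p = 0.0539), and Cdkn1a one of -1.71 ± 0.92 (adjusted p = 0.212, both by edgeR's quasi-likelihood test). The tables list 38293 genes for HSCs and 41214 for CD41low/CD9low HSCs, so that a difference in annotation cannot be told apart from the population.

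Beyond these genes, 76 further genes of the p53 pathway and of the Gadd45 proteins' partners were examined in 4 lists. Among 22 p53 relatives and regulators, 19 were tested in each population. In HSCs 2 were up and 0 down, beside 14.1% up and 10.3% down over all genes. In CD41low/CD9low HSCs 0 were up and 1 down, beside 13.5% and 12.0%. The p53 relatives Trp63 and Trp73 and the Mdm2 inhibitor locus Cdkn2a, with 0 to 2 counts per library, were at or under the floor of 3 counts. Ep300, an acetyltransferase and coactivator of p53, had the highest ratio of the list in HSCs, at 1.58 (1.53 to 1.63), and 1.15 (1.09 to 1.22) in CD41low/CD9low HSCs. In the fit, 0 of the 19 passed for genotype, by edgeR and by DESeq2, and 2 had an unadjusted p under 0.05 in edgeR.

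Of 28 p53 targets in arrest, repair and feedback, HSCs had 3 up and 5 down, beside 14.1% up and 10.3% down over all genes. CD41low/CD9low HSCs had 3 in each direction, beside 13.5% up and 12.0% down over all genes. In the fit over both populations 2 of the 28 targets fell and 0 rose in KO, beside 0.308% lower and 0.535% higher over 14940 genes. An unadjusted p under 0.05 was reached by 7 of the 28 in edgeR and 4 in DESeq2, beside 1501 and 974 over all genes. Plk2, a polo-like kinase induced by p53 and by mitogens, had 2133 counts in WT and 220 in KO HSCs, against 185 and 68 in the CD41low/CD9low pair. It fell by 2.54 on the log2 scale over both populations (adjusted p = 0.000216, edgeR's quasi-likelihood test), with ratios of 0.127 (0.110 to 0.146) and 0.245 (0.183 to 0.325). Btg2, an antiproliferative p53 target that is also an immediate-early gene, fell by 0.91 (adjusted p = 0.0117, same test), with ratios of 0.589 (0.569 to 0.611) and 0.466 (0.374 to 0.578). Zfp365, a zinc finger gene that p53 induces, was down in both, at 0.332 (0.170 to 0.609) and 0.282 (0.156 to 0.491), on 52 and 14 counts in HSCs and 45 and 19 in CD41low/CD9low HSCs. The noncoding RNA gene Pvt1 was up in both, with 232 and 460 counts in HSCs and 24 and 148 in CD41low/CD9low HSCs, ratios of 2.45 (2.09 to 2.88) and 4.11 (2.66 to 6.62), and an adjusted p of 0.117 (edgeR's quasi-likelihood test). Ccng2, the relative of Ccng1 that encodes cyclin G2, had a ratio of 1.49 in both populations (1.43 to 1.55 and 1.38 to 1.61), just under the cutoff. Sertad1, a regulator of Cdk4, was down in HSCs at 0.502 (0.465 to 0.541) and at 1.11 (0.975 to 1.27) in CD41low/CD9low HSCs. Rps27l, a ribosomal protein gene that p53 induces, was at 0.896 (0.846 to 0.950) and 0.616 (0.558 to 0.681). The members of this list therefore lay on both sides of 1, with a median log2 ratio of -0.12 in HSCs and 0.01 in CD41low/CD9low HSCs.

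Of 15 p53 targets in apoptosis, HSCs had 1 up and 1 down, beside 14.1% up and 10.3% down over all genes. Of the 14 tested in the CD41low/CD9low pair 3 were up and 1 was down, beside 13.5% and 12.0%. These 3 had few counts there. Named after their values were seen, Fas had 19 in WT and 46 in KO, at 1.61 (0.927 to 2.92), and Trp53inp2 had 8 and 31, at 2.58 (1.16 to 6.51). Perp, a desmosomal membrane protein induced by p53, was down in both, with 122 and 20 counts in HSCs and 29 and 13 in CD41low/CD9low HSCs and ratios of 0.202 (0.119 to 0.326) and 0.299 (0.143 to 0.593). Eda2r, a receptor of the TNF receptor family, was up in both, with 311 and 490 counts in HSCs and 13 and 52 in CD41low/CD9low HSCs and ratios of 1.95 (1.68 to 2.25) and 2.67 (1.43 to 5.34). Neither passed the fit over both populations, where the adjusted p was 0.632 for Perp and 0.415 for Eda2r (edgeR's quasi-likelihood test). Bbc3, the BH3-only protein Puma, was at 0.973 (0.855 to 1.11) in HSCs but 1.46 (1.20 to 1.77) in CD41low/CD9low HSCs. This list had 0 calls for genotype in edgeR and in DESeq2, with 2 and 0 of 15 genes at an unadjusted p under 0.05, beside 1501 and 974 of 14940 over all genes.

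Among 11 partners of the Gadd45 proteins, HSCs had 1 up and 1 down, beside 14.1% up and 10.3% down over all genes. The CD41low/CD9low pair had 0 past either cutoff, beside 13.5% up and 12.0% down. Map2k6, a kinase upstream of p38, was up in HSCs at 1.56 (1.41 to 1.73) and at 1.41 (1.15 to 1.73) in CD41low/CD9low HSCs. The gene that was down in HSCs, named after its values were seen, was Cdk1, the mitotic kinase that Gadd45 proteins bind, at 0.595 (0.565 to 0.625) there and 0.692 (0.635 to 0.754) in the CD41low/CD9low pair, with an adjusted p of 0.0786 (edgeR's quasi-likelihood test). Pcna, the sliding clamp of DNA replication and also named after its values were seen, was at 0.737 (0.714 to 0.760) and 0.683 (0.648 to 0.719). Its adjusted p was 0.153 in the same edgeR test. The partner kinase Map3k4 was at 1.11 (1.06 to 1.15) in HSCs and 0.891 (0.833 to 0.9535) in the CD41low/CD9low pair. The list had 0 calls in the fit by edgeR and by DESeq2, with 4 and 3 of 11 genes at an unadjusted p under 0.05, beside 1501 and 974 of 14940 over all genes. The 4 in edgeR were Cdk1, Pcna and Ccnb1, which were lower in KO in both pairs, and Map2k6, which was higher in both.

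p21 is known to lower many cell-cycle genes through the DREAM repressor complex, a relation in which p21 and these genes go in opposite directions. Therefore 12 such genes were read beside Cdkn1a. All 12 had a ratio below 1 in both populations, beside 7952 of 15910 genes in HSCs and 7268 of 14844 in CD41low/CD9low HSCs. The counting interval lay below 1 for 12 of them in HSCs and 8 in CD41low/CD9low HSCs, beside 5362 and 4512 of all genes. In each population 1 was below 0.6, beside 10.3% and 12.0% of all genes. The median log2 ratio of the 12 genes came to -0.53 in HSCs against -0.35 in CD41low/CD9low HSCs. In the fit 0 of them passed for genotype by edgeR and by DESeq2, with 8 and 7 of 12 at an unadjusted p under 0.05, beside 1501 and 974 of 14940 over all genes. Counts of Cdkn1a and of these genes were thus both lower in the KO libraries, in the same direction, and a link between them was not tested.

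**Figure D3:**
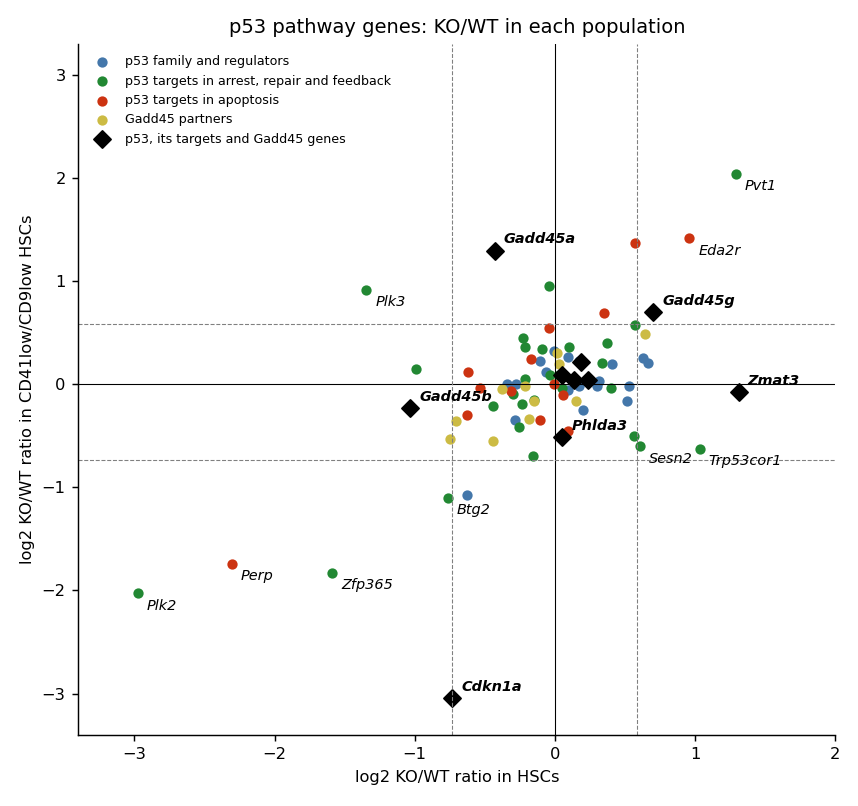
log2 KO/WT ratio in HSCs (x axis) against CD41low/CD9low HSCs (y axis) for the 10 genes (diamonds) and the 4 further lists (colored points), each from 1 library per genotype, with dashed lines at ratios of 0.6 and 1.5. Cdkn1a, Plk2, Perp, Zfp365 and Btg2 lie below 0 in both, Gadd45g, Pvt1 and Eda2r lie above 0 in both, and most other genes lie near the center.

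**Figure D4:**
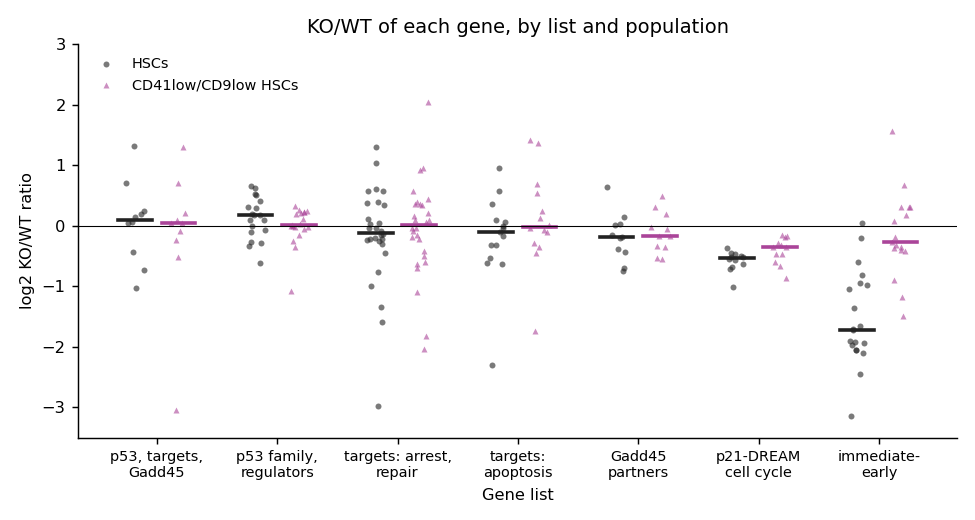
log2 KO/WT ratio of each tested gene by list, in HSCs (circles) and CD41low/CD9low HSCs (triangles), with a horizontal bar at each list's median. The immediate-early genes have a median of -1.72 in HSCs against -0.27 in CD41low/CD9low HSCs, whereas the p21-DREAM genes lie below 0 in both and the p53 lists scatter around 0.

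To describe which genes resembled these genes most, log2 normalised counts were centered for each gene and compared by Euclidean distance over the 4 libraries among the 11063 genes with at least 50 counts in every library. Cdkn1a, Phlda3 and Gadd45g had fewer counts and were left out of this step. Nearest to Zmat3 were Rhoj, Polr2a and Usp34, at distances of 0.0963 to 0.255 on the log2 scale. Nearest to Gadd45a were Rgcc, Usmg5 and Trim13 (0.160 to 0.222), and nearest to Gadd45b were Car2, Pmm1 and Serpinb8 (0.120 to 0.145). For Mdm2 the nearest genes were Sf3b4, Sin3a and Blzf1 (0.0237 to 0.0291), for Ccng1 Tmem241, Rnf2 and Vcpip1, and for Trp53inp1 Zcchc4, Sp100 and Adam17. With 4 libraries many genes share a pattern, so that these names describe likeness in pattern over these libraries and nothing else.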

How the data were processed

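RNA of the 4 sorted samples was sequenced with the TruSeq Stranded mRNA kit. The authors aligned the reads to mm10 with TopHat v2.0.10, processed them with Samtools, counted them with HTSeq and deposited raw counts per Ensembl gene without normalization. HTSeq's version, strand setting and gene annotation are not given in the sources used here. Closing lines of the tables, which name no gene, were left out. Reads assigned to no feature came to 60.1 to 105.3 per 100 counts on genes, and reads aligned to several places to 96.2 to 121.6.

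The members and lists were chosen with earlier results of these data known. Identifiers were matched to GENCODE M21 (GRCm38), where all 168 listed symbols were found. Ratios used median-of-ratios size factors of each pair (KO/WT 0.81 in HSCs and 1.50 in CD41low/CD9low HSCs), no pseudocount and a minimum of 10 counts in either library. Intervals are exact (Clopper-Pearson for ratios, Poisson for levels) at 95% and cover counting error only. The interval of a quotient of ratios is normal on the log scale. The fit was edgeR's quasi-likelihood test with TMM, genotype and population, at least 10 counts in at least 2 libraries and Benjamini-Hochberg adjustment, and its SE was taken from the F statistic. With 1 residual degree of freedom, each gene's spread was drawn toward a trend over all genes (median prior degrees of freedom 15.7). The p-values and SEs therefore measure no spread between replicate samples of a group. Named genes of the lists were those past the cutoffs in the same direction in both populations, those called in the fit, and the 5 highest and 5 lowest ratios per population with at least 50 counts in a library. The steps were run on simulated counts, with Poisson counts for the ratios and a common dispersion for the fit. Changes were placed only in genes above the median level, so that changes in genes of low level were not covered. Alternatives were other scalings, filters, a pseudocount of 1, a cutoff of 1/1.5, a correction by the running median of 500 genes of similar exon length, and DESeq2. Software was R 4.3.3, edgeR 4.0.16, DESeq2 1.42.0, Python 3.11.15 and scipy 1.17.1. The genes nearest in pattern to Trp53 are not reported here.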

Additional observations from a re-analysis of the deposited data

Results flagged for a closer look

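Among the 10 genes and the 15 named genes of the p53 and Gadd45 partner lists, 4 had KO/WT ratios on opposite sides of 1 in the populations, with counting intervals that exclude 1 in each. Of the other genes of those lists, Atr, Rchy1, Prkdc, Fdxr, Bax and Map3k4 met the same condition, with ratios between 0.6 and 1.5 in both populations. The difference between the populations was not tested, since 1 library per genotype and population leaves no residual spread for it.

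Gadd45a had a ratio of 0.743 in HSCs and 2.46 in CD41low/CD9low HSCs, and the quotient of the second to the first was 3.303 (95% interval for counting error 2.55 to 4.27). Plk3, a polo-like kinase of the stress response, had 605 counts in WT and 193 in KO HSCs, against 18 and 51 in the CD41low/CD9low pair, which gives ratios of 0.394 and 1.89. Sesn2, a sestrin induced by p53 and by amino acid shortage, had ratios of 1.52 and 0.659. Trp53cor1, a noncoding RNA gene next to Cdkn1a also known as lincRNA-p21, had 163 and 270 counts in HSCs and 97 and 94 in CD41low/CD9low HSCs, with ratios of 2.04 and 0.646. Cdkn1a, its neighbor, was lower in KO in both.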

How the results depend on the processing

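The number of genes down among the 10 in HSCs was 2 in place of 1 under TMM, total-count or 4-library scaling and with a cutoff of 1/1.5, because Cdkn1a then passed. With at least 50 counts required, 0 were down in CD41low/CD9low HSCs, since Cdkn1a was left out, and over all genes HSCs had 1431 up and 792 down, with 982 and 702 in CD41low/CD9low HSCs. With no filter beyond 1 count, HSCs had 4354 genes up and 2649 down, with 3121 up in CD41low/CD9low HSCs. In the fit for genotype, 121 genes were higher and 85 lower with total-count scaling, 50 and 19 with at least 50 counts in at least 2 libraries, and 254 and 166 with no filter, against 80 and 46. DESeq2 gave 70 and 31.

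No ratio of the 10 genes that was called changed direction under these alternatives. Of the ratios under alternatives, 155 stayed within the counting interval, and the 3 exceptions were Zmat3 (2.16), Trp53inp1 (1.08) and Gadd45g (1.85) in HSCs after the correction for exon length. With no filter, Zmat3 passed the test between populations (log2 -1.08, adjusted p = 0.0184, edgeR's quasi-likelihood test), where its adjusted p was 0.0544 to 0.142 under the other alternatives. No paired analysis was possible because the labels give no replicate numbers and each group has 1 library, and for the same reason no replicate could be left out. Depth limits Cdkn1a and Phlda3 in CD41low/CD9low HSCs, with 6 to 33 counts.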
